A study of Homo sapiens with 18 samples.

Results

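NFE2L2 encodes NRF2, the transcription factor that switches on antioxidant and detoxifying genes in cells under oxidative stress. This account follows NFE2L2 and 9 genes that encode its regulators and partners: KEAP1, CUL3, SQSTM1, NFE2L1, MAFF, MAFG, MAFK, BACH1 and OSGIN1. The 10 genes were chosen by symbol from the 56269 genes of the deposited table. All 10 were among the 13686 genes with a mean normalized count of at least 10, which were tested. Polyadenylated RNA was sequenced from IMR90 cells, a line of human lung fibroblasts, in 6 groups of 3 replicates each. For 6 h the cells received PBS or 20 μg/ml of hyaluronan (HA) made by naked mole-rat skin fibroblasts, either cNSF-HA, the heated full-length control, or fNSF-HA, which hyaluronidase had partly cut. The groups PBS, cNSF-HA and fNSF-HA were collected at the end of this pre-incubation. The groups PBS + tBHP, cNSF-HA + tBHP and fNSF-HA + tBHP went on to 1 h in 200 μM tert-butyl hydroperoxide (tBHP), an organic peroxide, and 5 h without it. They were thus collected 6 h later than the unstressed cells, so that the exposure and the added time and medium change cannot be told apart. The study's methods call its replicates biological without describing what was separate for these libraries, and p-values measure only the spread between libraries of 1 cell line.

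In unstressed cells, KEAP1 holds NRF2 in the cytoplasm and presents it to a ubiquitin ligase built on CUL3, and NRF2 is broken down almost as fast as it is made. Peroxides and other electrophiles modify cysteines of KEAP1, NRF2 then escapes, enters the nucleus, pairs with a small MAF protein (MAFF, MAFG or MAFK) and binds antioxidant response elements, where BACH1 otherwise represses. Much of this control acts on protein, which mRNA counts do not measure.

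An antioxidant response element has the core TGACNNNGC or TGAGNNNGC, and promoters of the 10 genes were searched for it on both strands because several of these genes are themselves described as NRF2 targets. RefSeq promoters of build GRCh38.p14, from 250 bases before to 50 bases after a start site, were on hand for 9 of the 10 genes, in 18 windows (MAFK had no entry). Of these windows, 5 (27.8%) held the core, against 29.1% of all 35116 promoters, so the share was close to that of promoters at large. They belong to NFE2L2, SQSTM1, OSGIN1, KEAP1 and MAFF, and the match nearest to the start site of each is shown with 10 bases on either side, the core in capitals and the strand of the gene as printed.
NFE2L2: gctggccgtcTGAGCCGGCgcggcccggc
SQSTM1: gggtcagcaaTGAGGGGGCcgggagacct
OSGIN1: acgggcccctGCTGACTCAcgcttatgaa
KEAP1: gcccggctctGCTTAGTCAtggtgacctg
MAFF: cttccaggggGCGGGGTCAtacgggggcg
Coordinates are those of the 29 printed bases, and distances run from the first base of the core to the start site. The stretch of NFE2L2 spans chr2:177264129-177264157 (minus), with its core 16 bases before the start and outside exons of GENCODE release 29. That of SQSTM1 spans chr5:179820705-179820733 (plus), with a core on the same strand 190 bases before the start and also outside exons. In OSGIN1 the stretch spans chr16:83953131-83953159 (plus), with a core on the opposite strand 99 bases before the start, outside exons. In KEAP1 it spans chr19:10502784-10502812 (minus), with a core on the opposite strand 31 bases before the start and inside an annotated exon. In MAFF it spans chr22:38201862-38201890 (plus), with a core on the opposite strand 122 bases before the start and inside an annotated exon. The OSGIN1 core also contains an AP-1 site, TGAGTCA read on the opposite strand, which 2 of the 18 windows and 4.95% of all promoters held. The other window with an AP-1 site is that of BACH1, printed over chr21:29298864-29298890 (plus), with TGAGTCA in capitals, 48 bases before the start and inside an exon.
BACH1: gcggaaggagTGAGTCAcctgaccgct
These matches describe letters in a window, and binding was not measured.

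The libraries held 20261103 to 26287660 reads on genes, and OSGIN1, the least abundant of the 10 genes without tBHP, had at least 162 normalized counts in each. All 8 fibroblast markers passed the filter on low counts, of which 1 rose and 3 fell in PBS cells after tBHP (24.2% and 26.9% of all genes tested), and their summed level was 588985 to 610836 normalized counts without tBHP and 452013 to 717947 after it. Of these 8, 1 was also called higher in fNSF-HA + tBHP than in PBS + tBHP, where 0.139% of all genes were called. The 5 epithelial markers summed to 0.977 to 14.5 and the 5 endothelial and leukocyte markers to 0 to 4.89, with KRT5, SFTPC and CDH5 at 0 throughout. The spread between replicates was wider after tBHP: over all genes tested, the median SD of a group was 0.06 to 0.07 on the log2 scale without tBHP and 0.15 to 0.22 after it. Libraries exposed to tBHP also differed in how counts followed the GC content of transcripts. For the 1251 genes with the highest GC content, fNSF-HA + tBHP replicate 2 lay 0.78 below the mean of the 9 tBHP libraries on the log2 scale (median over genes), while the other 8 lay between -0.19 and 0.33. Several values that it moves, though not all, are given with and without it.

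Compared per kilobase of annotated exon, the 10 genes spanned a wide range of levels in PBS cells. NFE2L1 was the most abundant, at 1302 ± 13.2 normalized counts per kilobase (SD, n = 3), followed by SQSTM1 at 591 ± 21.4, KEAP1 at 376 ± 9.98, MAFK at 353 ± 7.36 and NFE2L2 at 313 ± 6.00. MAFG stood at 215 ± 2.52, CUL3 at 194 ± 7.80, MAFF at 190 ± 9.83, BACH1 at 177 ± 3.44 and OSGIN1 at 50.8 ± 3.53. The libraries of CUL3 and MAFF overlapped, as did those of MAFF and BACH1, and the other neighbours in this order did not. After tBHP, SQSTM1 was first at 2637 ± 233 per kilobase, ahead of NFE2L1 at 1794 ± 130. The levels of KEAP1 and MAFG then overlapped, as did those of NFE2L2, MAFK and OSGIN1 in turn, and those of BACH1 and CUL3 at the bottom. The order depends on the gene model: per kilobase of the longest transcript, NFE2L2 ranked 3rd in place of 5th in PBS cells.

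The first comparison asked what 6 h of oxidant stress and recovery did to these genes in cells that had received PBS. Of the 10 genes, 8 rose, where 24.2% of all genes tested rose, and 1 (CUL3) fell, where 26.9% of all fell. OSGIN1 rose 9.24-fold, SQSTM1 4.46-fold and MAFG 2.75-fold, and MAFF, KEAP1, NFE2L2, NFE2L1 and MAFK rose by smaller factors of 1.84 to 1.37. The median log2 change of the 10 genes was 0.72, beside 0.00 over all genes tested. Because RNA was taken from whole cultures, a lower count from fewer cells of a kind and from less RNA per cell cannot be told apart.

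**Figure D1:**
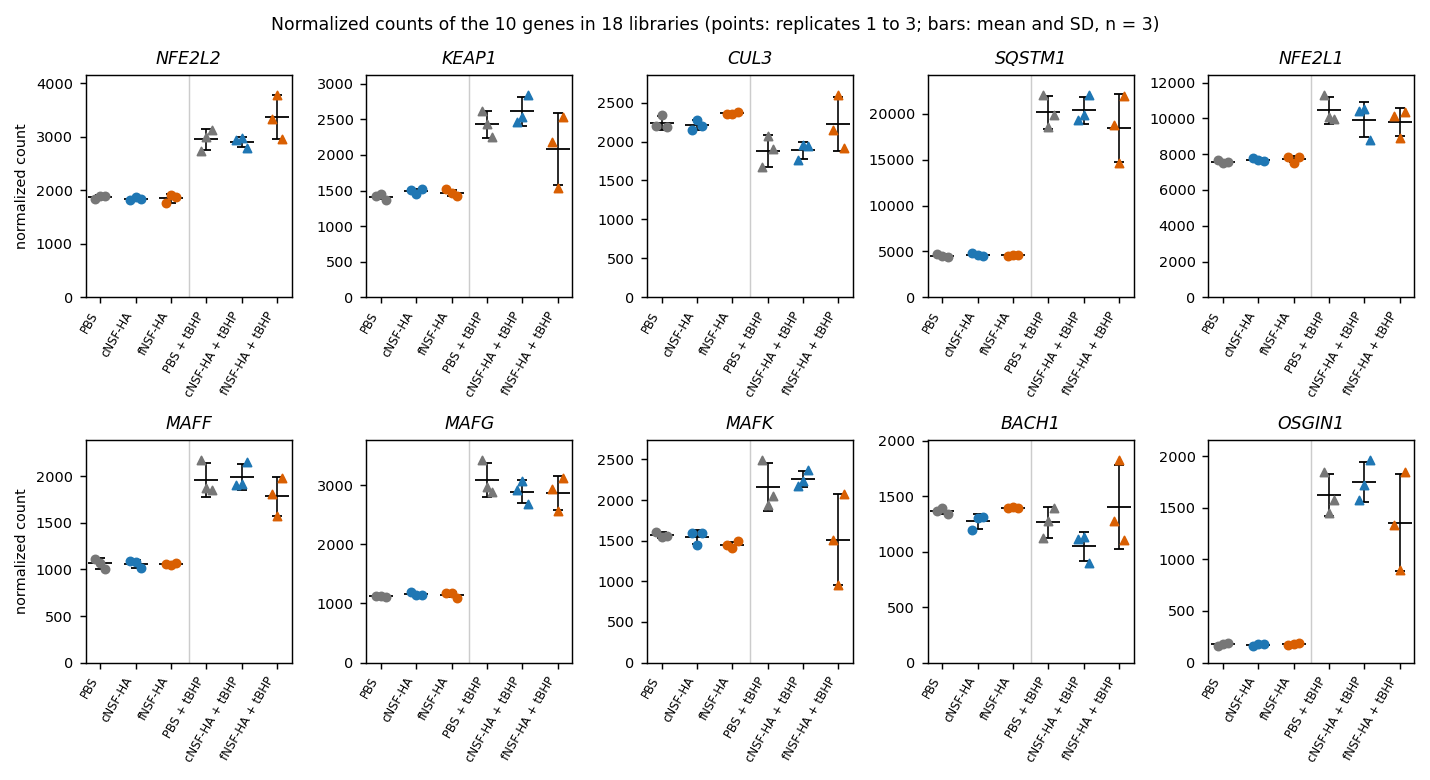
Normalized counts (y axis, linear from 0) of the 10 genes in each library of the 6 groups (x axis), with circles for unstressed and triangles for tBHP libraries, and bars for the mean and SD of 3 replicates. SQSTM1 and OSGIN1 stand far above their unstressed levels after tBHP, and fNSF-HA + tBHP replicate 2, the middle triangle of the last group, is lowest of all 9 tBHP libraries for KEAP1, MAFF, MAFG, MAFK, SQSTM1 and OSGIN1.

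NFE2L2 (chr2:177227595-177392697, minus strand of GRCh38) read 1834, 1886 and 1902 normalized counts in the PBS libraries and 2737, 2998 and 3131 in the PBS + tBHP libraries. The groups did not overlap, and mRNA of the factor itself was 1.58-fold higher (log2 change 0.66, SE 0.08, adjusted p = 1.9e-06; limma with Benjamini-Hochberg adjustment, as for all adjusted p-values here). KEAP1 (chr19:10486120-10503741, minus), the sensor that keeps NRF2 low, read 1425, 1447 and 1374 before and 2620, 2429 and 2246 after. Its rise was of similar size, at 1.72-fold (log2 change 0.78, SE 0.12, adjusted p = 4.3e-05). When a dependence of each library's values on the GC content and length of transcripts was removed, KEAP1 rose by 0.50 and NFE2L2 by 0.71. Per kilobase, NFE2L2 stood at 0.833 ± 0.033 of KEAP1 (SD, n = 3) without tBHP and at 0.770 ± 0.110 after it, and the 2 ranges overlapped. The ratio depended on that step and on the pre-incubation. With the trend removed, log2 NFE2L2 minus log2 KEAP1 was 0.23 to 0.34 without tBHP and 0.38 to 0.62 after it, with no overlap and in the other direction. With cNSF-HA, the ratio per kilobase of deposited values was 0.763 to 0.805 without tBHP and 0.616 to 0.751 after it, also without overlap. With fNSF-HA it was 0.731 to 0.829 without tBHP and 0.738 to 1.55 after it, and overlapped. With the trend removed, the log2 ratio was higher after tBHP without overlap in both, at 0.20 to 0.27 and 0.33 to 0.49 with cNSF-HA and at 0.07 to 0.24 and 0.50 to 0.74 with fNSF-HA.

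CUL3 (chr2:224470150-224585397, minus), the scaffold of the ligase, moved the other way. It read 2193, 2342 and 2181 normalized counts in PBS cells and 1669, 2070 and 1902 after tBHP, so that the groups did not overlap but lay close. The log2 change was -0.26 (SE 0.09, adjusted p = 0.030), or 0.84-fold. This call was fragile. It was lost without any 1 of the 3 PBS libraries or without PBS + tBHP replicate 1 or 3 (adjusted p between 0.051 and 0.16), with no filter on low counts (adjusted p = 0.057) and with edgeR (-0.19, adjusted p = 0.083). With the GC and length trend removed, the change of CUL3, which has a GC content of 37.5%, was 0.21 (adjusted p = 0.0034), in the opposite direction.

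SQSTM1 (chr5:179806398-179838078, plus) encodes p62, a receptor that carries ubiquitinated cargo into autophagosomes and that binds KEAP1. It read 4690, 4521 and 4363 normalized counts in PBS cells and 22090, 18559 and 19898 after tBHP. Every stressed library lay far above every unstressed one, with a log2 change of 2.15 (SE 0.10, adjusted p = 2.6e-11). Relative to KEAP1 per kilobase, SQSTM1 stood at 1.57 ± 0.042 without tBHP and at 4.08 ± 0.303 after it (SD, n = 3), with no overlap. With 3 libraries against 3, the smallest two-sided p of an exact permutation test is 0.10, and ratios are given without a test. MRNIP on the opposite strand shares 20.7% of the exon length of SQSTM1, and the libraries do not mark strand.

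NFE2L1 (chr17:48048329-48061487, plus) encodes NRF1, a relative of NRF2 that is anchored in the endoplasmic reticulum and drives proteasome genes. It read 7663, 7509 and 7583 normalized counts before and 11319, 10074 and 9953 after tBHP. The groups did not overlap, and the rise was 1.38-fold (log2 change 0.46, SE 0.07, adjusted p = 6.0e-05), or 0.25 on the log2 scale with the GC and length trend removed. SQSTM1 stood at 0.454 ± 0.014 of NFE2L1 per kilobase in PBS cells and at 1.47 ± 0.061 after tBHP, so the 2 genes traded places as the most abundant of the 10.

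The small MAF genes encode short partners that bind DNA together with NRF2, NRF1 or BACH1, and the 3 genes responded to different extents. MAFG (chr17:81918270-81927714, minus) went from 1132, 1129 and 1108 normalized counts in PBS cells to 3426, 2966 and 2887 after tBHP (log2 change 1.46, SE 0.08, adjusted p = 1.4e-10). MAFF (chr22:38200767-38216511, plus) went from 1117, 1072 and 1007 to 2175, 1870 and 1849 (log2 change 0.88, SE 0.09, adjusted p = 2.4e-07). Both genes rose with a clear gap between the groups. With the GC and length trend removed, MAFG rose by 1.21 and MAFF by 0.58, the latter below the 0.71 of NFE2L2. MAFK (chr7:1530714-1543043, plus) went from 1609, 1545 and 1563 to 2492, 1941 and 2048 (log2 change 0.45, SE 0.17, adjusted p = 0.037). The rise of MAFK was the weakest of the 8, and the call was lost without any 1 of the PBS libraries or without PBS + tBHP replicate 1 or 3 (adjusted p between 0.057 and 0.16), and with no filter on low counts (adjusted p = 0.065). Removal of the GC and length trend left a rise of 0.12 (adjusted p = 0.043), and in cNSF-HA cells 0.21 in place of 0.55. MAFK was the largest of the 3 per kilobase of exon in PBS cells, with a share of 46.6% ± 0.631 (SD, n = 3), and MAFG had 28.4% ± 0.423. After tBHP, MAFG was the largest, with 41.6% ± 0.830, and MAFK had 33.9% ± 1.19. The share of MAFF was 25.0% ± 0.764 before and 24.5% ± 0.374 after, and overlapped. This order depends on the gene model: per kilobase of the longest transcript, MAFG went from 22.0% ± 0.376 to 33.1% ± 0.689, and MAFK, which went from 46.0% ± 0.716 to 34.5% ± 1.19, was still the largest on average. TMEM184A shares 18.2% of the exon length of MAFK on the opposite strand, at a mean of 24.6 normalized counts.

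**Figure D2:**
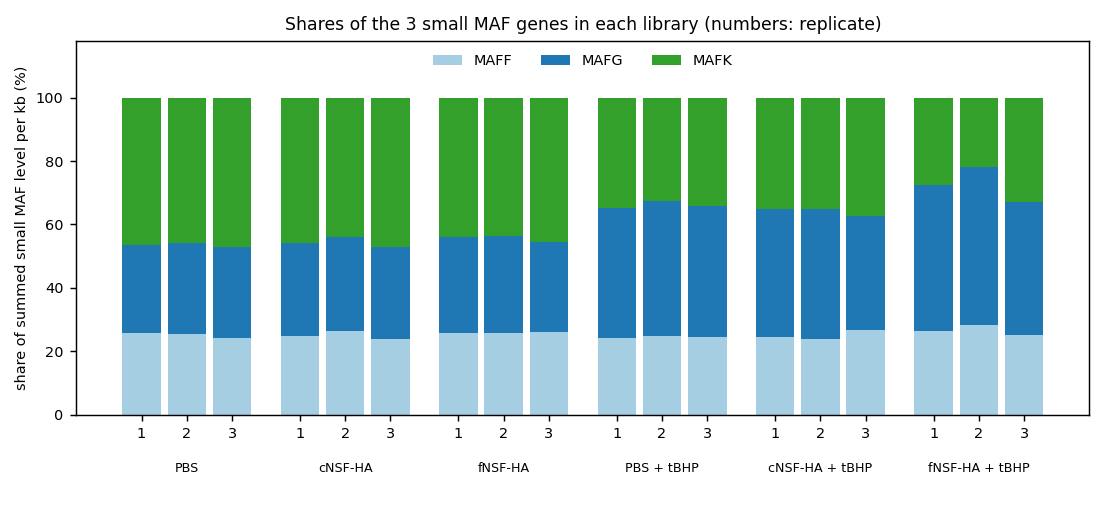
Shares (y axis, percent) of MAFF, MAFG and MAFK in their summed normalized count per kilobase of exon, 1 bar per library with the replicate number beneath it. The share of MAFG was 27.9% to 30.9% in the 9 unstressed libraries and 36.0% to 49.8% in the 9 tBHP libraries, and that of MAFK was lowest, at 21.8%, in fNSF-HA + tBHP replicate 2.

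BACH1 (chr21:29194071-29630751, plus), the heme-sensing repressor of antioxidant response elements, showed no difference beyond the spread in PBS cells. It read 1367, 1396 and 1343 normalized counts before and 1120, 1279 and 1392 after tBHP, and the groups overlapped (log2 change -0.12, 95% interval -0.40 to 0.16, adjusted p = 0.47). With the GC and length trend removed, the change was 0.30 (adjusted p = 0.00039), so that its direction depends on that step. The levels of activator and repressor mRNA moved apart: NFE2L2 stood at 1.77 ± 0.053 of BACH1 per kilobase without tBHP and at 3.03 ± 0.125 after it (SD, n = 3), with no overlap. The shift was smaller with the GC and length trend removed, where both genes rose and log2 NFE2L2 minus log2 BACH1 went from 0.63 ± 0.08 to 1.05 ± 0.08, against 0.45 ± 0.04 to 1.23 ± 0.06 for deposited values.

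OSGIN1 (chr16:83948282-83966332, plus), an oxidative stress-induced growth inhibitor, had the lowest level without tBHP and the largest relative rise of the 10 genes. It read 162, 179 and 186 normalized counts in PBS cells and 1850, 1450 and 1572 after tBHP. The lowest stressed library lay far above the highest unstressed one, and the log2 change was 3.20 (SE 0.17, adjusted p = 1.0e-10).

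The second question was whether cells pre-incubated with HA responded to tBHP in the same way. In cNSF-HA cells, 8 of the 10 genes rose (24% of all genes tested rose and 26.8% fell), with OSGIN1 at 3.32 on the log2 scale, SQSTM1 at 2.14 and MAFG at 1.32. MAFF rose by 0.91, KEAP1 by 0.81, NFE2L2 by 0.65, MAFK by 0.55 and NFE2L1 by 0.37. With the GC and length trend removed, these rises were 0.59, 0.50, 0.69, 0.21 and 0.21. The call on MAFK was lost without cNSF-HA replicate 2 (adjusted p = 0.0504). No gene passed in the downward direction, with CUL3 at -0.23 (adjusted p = 0.0502) and BACH1 at -0.29 (adjusted p = 0.083). The call on CUL3 turned on the setting: it was lower in 7 of 11 other settings (adjusted p between 0.014 and 0.0499) and without any 1 of 4 libraries. Without fNSF-HA + tBHP replicate 2, which enters the shared estimate of the spread, both were called lower (adjusted p = 0.010 and 0.0088), as were 29.8% of all genes. BACH1 was also called lower without replicate 3 of that group (adjusted p = 0.036) and in the fit of the compared groups alone (adjusted p = 0.029). With the GC and length trend removed, CUL3 passed as higher (0.27, adjusted p = 0.00044), as did 28.2% of all genes, and BACH1 was at 0.15 (adjusted p = 0.056).

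In fNSF-HA cells, 7 of the 10 genes rose, where 19.2% of all genes tested rose and 22.7% fell. These were OSGIN1 (log2 change 2.85), SQSTM1 (1.99), MAFG (1.32), NFE2L2 (0.86), MAFF (0.75), KEAP1 (0.48) and NFE2L1 (0.34). CUL3 was at -0.10 (adjusted p = 0.42), BACH1 at -0.03 (adjusted p = 0.88) and MAFK at -0.01 (adjusted p = 0.98). Without fNSF-HA + tBHP replicate 2, MAFK was at 0.29 (adjusted p = 0.030) and CUL3 at -0.22 (adjusted p = 0.029), so that 8 genes rose and 1 fell, where 24.4% of all genes tested rose and 26.2% fell. In that setting BACH1 was at -0.24 (adjusted p = 0.052), OSGIN1 at 3.12 and KEAP1 at 0.68. With the GC and length trend removed and all libraries kept, CUL3 (0.20, adjusted p = 0.0063) and BACH1 (0.23, adjusted p = 0.0042) passed as higher, as did 27.6% of all genes.

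**Figure D3:**
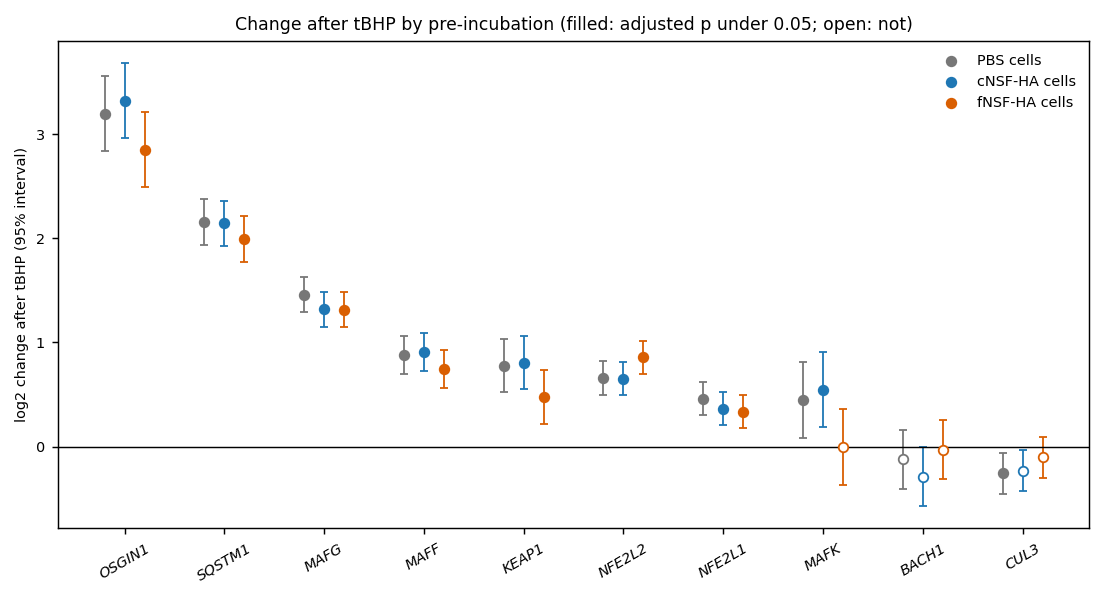
Log2 change after tBHP (y axis) of each gene (x axis, ordered by the change in PBS cells) in cells pre-incubated with PBS, cNSF-HA or fNSF-HA, with 95% intervals from limma. Filled points passed an adjusted p of 0.05, and the 3 intervals of every gene overlapped, from OSGIN1 at 2.85 to 3.32 down to CUL3 at -0.26 to -0.10.

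Differences between these responses were tested as interactions, and none of the 10 genes passed in any of the 3 (0% of all genes tested passed in each). Between cNSF-HA and PBS cells, the smallest p belonged to MAFG, with a difference of -0.14 (95% interval -0.38 to 0.10, adjusted p = 1.00). The difference between fNSF-HA and PBS cells was -0.46 for MAFK (95% interval -0.97 to 0.06, adjusted p = 0.67), and the other 9 lay between -0.34 and 0.20. Between cNSF-HA and fNSF-HA cells it was 0.55 for MAFK (95% interval 0.04 to 1.07, adjusted p = 0.71), and the others lay between -0.26 and 0.47. These 2 values for MAFK turned on single libraries: they were -0.16 and 0.26 without fNSF-HA + tBHP replicate 2 (adjusted p = 1.00 for both) and -0.72 and 0.82 without replicate 3 of that group (adjusted p = 0.066 and 0.080). Removal of the GC and length trend took them to -0.15 and 0.24 (adjusted p = 0.71 and 0.80), the 10 genes then lay between -0.15 and 0.14 in the comparison with PBS and between -0.15 and 0.24 between the HA groups, and 6 and 5 of the 10 turned direction. Only MAFK of the 10 had an unadjusted p under 0.05 in these tests with limma, in the last of the 3, while 555, 942 and 533 of all genes tested did. Neither edgeR nor DESeq2 on the recovered reads called any of the 10. The intervals allow differences of up to about 1 on the log2 scale for MAFK, so the responses are not shown to be alike.

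The third question was whether HA alone changed these genes. Among unstressed cells, none of the 10 passed the test between cNSF-HA and PBS, fNSF-HA and PBS, or cNSF-HA and fNSF-HA (0% of all genes tested passed in each). With limma, none of the 10 had an unadjusted p under 0.05 in these comparisons, against 126, 109 and 206 of all genes tested, and edgeR and DESeq2 called none of the 10. The limma fit shares 1 estimate of the spread over all 18 libraries. The median SD over all genes was 0.06 to 0.07 without tBHP and 0.15 to 0.22 after it. Intervals among unstressed cells therefore tend to be too wide, and a small difference could be missed here. Log2 differences of the 10 genes lay between -0.11 and 0.08 for cNSF-HA against PBS and between -0.12 and 0.08 for fNSF-HA against PBS. BACH1 had the smallest p in the first (-0.11, 95% interval -0.39 to 0.18), and CUL3 in the second (0.08, 95% interval -0.12 to 0.28). NFE2L2 read 1823, 1867 and 1837 normalized counts with cNSF-HA and 1762, 1910 and 1878 with fNSF-HA, within a few percent of the PBS libraries. Between cNSF-HA and fNSF-HA, CUL3 had the smallest p (-0.10, 95% interval -0.30 to 0.10). BACH1 read 1198, 1307 and 1315 with cNSF-HA and 1397, 1401 and 1397 with fNSF-HA. These libraries did not overlap, and a fit of these groups alone called the difference of -0.14 (adjusted p = 0.041, where 7.16% of all genes passed), whereas the fit of all 18 libraries did not (adjusted p = 1.00). With the trend of GC and length removed, the difference was -0.04 (adjusted p = 1.00) and the libraries overlapped.

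The last question was whether HA of either size set a different level after tBHP. None of the 10 genes passed in any of the 3 comparisons, which share libraries with each other. The shared estimate of the spread tends to make intervals after tBHP too narrow. For cNSF-HA + tBHP against PBS + tBHP (0% of all genes tested passed), the 10 genes lay between -0.27 and 0.11 on the log2 scale, and BACH1 had the smallest p (-0.27, 95% interval -0.56 to 0.01, adjusted p = 0.59). With a library left out, this difference of BACH1 ran from -0.36 to -0.17. For fNSF-HA + tBHP against PBS + tBHP (0.139% of all passed), MAFK had the smallest p (-0.58, 95% interval -0.94 to -0.21, adjusted p = 0.11), and the other 9 lay between -0.31 and 0.24. Without fNSF-HA + tBHP replicate 2, those 9 lay between -0.09 and 0.12. For cNSF-HA + tBHP against fNSF-HA + tBHP (0% of all passed), MAFK was at 0.65 (95% interval 0.28 to 1.01, adjusted p = 0.098), and the others lay between -0.39 and 0.42. Unadjusted p-values under 0.05 were reached by 0, 3 and 6 of the 10 genes and by 1183, 3102 and 4412 of all genes tested. On the recovered reads, edgeR called none of the 10 and DESeq2 called 2 in the last comparison, MAFK (0.58, adjusted p = 0.038) and BACH1 (-0.42, adjusted p = 0.048), where it called 5.79% of all genes.

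MAFK carried the widest contrast between the HA groups. It read 2179, 2229 and 2374 normalized counts in cNSF-HA + tBHP and 1509, 956 and 2075 in fNSF-HA + tBHP. The groups did not overlap, but the fNSF-HA + tBHP libraries spanned more than a factor of 2. KEAP1 read 2467, 2529 and 2846 with cNSF-HA and 2189, 1538 and 2530 with fNSF-HA, and OSGIN1 read 1577, 1715 and 1961 against 1329, 897 and 1843. In both genes the groups overlapped, with replicate 2 of fNSF-HA + tBHP lowest and its replicate 3 within the range of cNSF-HA + tBHP. NFE2L2 read 2945, 2971 and 2787 against 3338, 3787 and 2966, and BACH1 read 1110, 1135 and 898 against 1275, 1826 and 1104. Here replicate 2 of fNSF-HA + tBHP was the highest library. Without it, the log2 differences between the HA groups went from 0.35 to 0.15 for KEAP1, from 0.42 to 0.16 for OSGIN1, from -0.21 to -0.12 for NFE2L2 and from -0.39 to -0.19 for BACH1.

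These differences followed the GC content of the genes. Transcripts of OSGIN1, MAFK, MAFF and KEAP1 have a GC content of 60.3% to 63.5%, and those of NFE2L2, BACH1 and CUL3 of 45.6%, 38.6% and 37.5%. Over the 10 genes, Pearson's r of the log2 difference with GC content was 0.89 for cNSF-HA + tBHP against fNSF-HA + tBHP and -0.88 for fNSF-HA + tBHP against PBS + tBHP. The genes share the same libraries, so this describes these libraries only. With the GC and length trend of each library removed, which lowers r by construction, KEAP1 between the HA groups was at 0.04, OSGIN1 at -0.02 and BACH1 at -0.12. The direction turned for 6 of the 10 genes, among them MAFF (from 0.16 to -0.20) and MAFG (from 0.01 to -0.15). Unadjusted p-values under 0.05 were then reached by 5 of the 10 genes, against 18.3% of all genes, and none of the 10 passed (0.008% of all genes did). MAFK kept a difference of 0.24 (adjusted p = 0.096), and against PBS + tBHP its difference of -0.23 in fNSF-HA + tBHP passed (adjusted p = 0.045), where 0.52% of all genes did. Without fNSF-HA + tBHP replicate 2, MAFK was at 0.35 between the HA groups (adjusted p = 0.57) and at -0.28 against PBS (adjusted p = 0.41). Without replicate 3 of that group, which leaves the 2 libraries with low counts of GC-rich genes, 8 of the 10 genes were called between the HA groups and 6 between fNSF-HA + tBHP and PBS + tBHP. In that setting 40.8% and 29.4% of all genes were called.

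**Figure D4:**
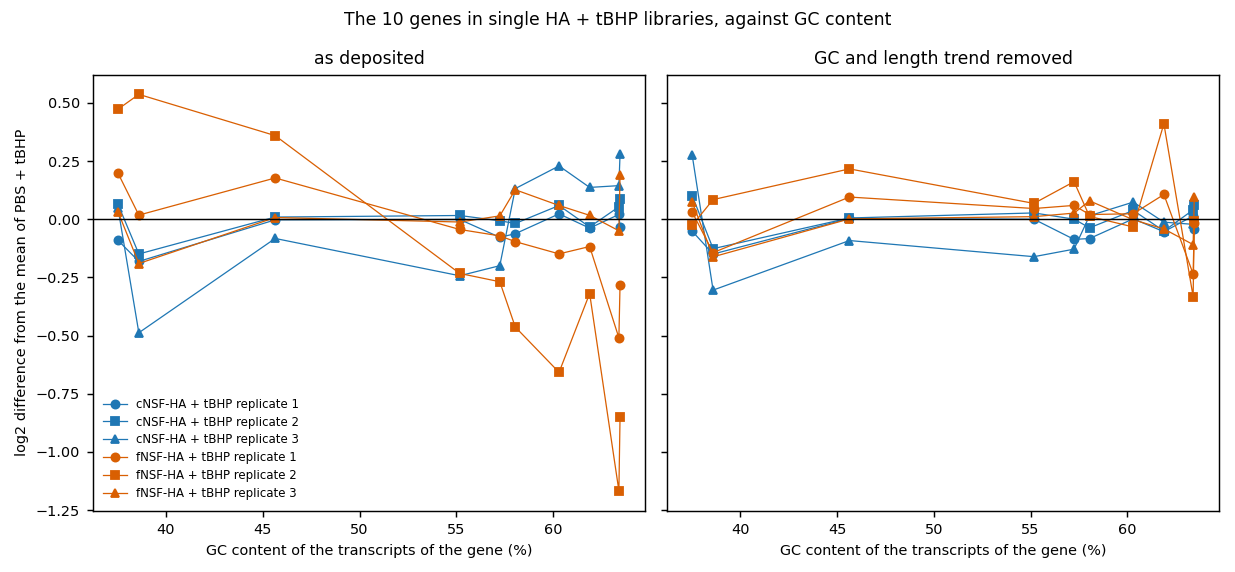
Log2 difference of each single HA + tBHP library from the mean of the PBS + tBHP libraries (y axis) for the 10 genes, placed by transcript GC content (x axis, percent), as deposited (left) and with the GC and length trend of each library removed (right). On the left, fNSF-HA + tBHP replicate 2 (orange squares) falls from above 0 at 37.5% GC to below -0.5 at the GC-rich end, where replicate 1 (orange circles) also lies low, and on the right, where the trend is taken out by construction, 41 of the 60 points lie closer to 0 than on the left and 19 do not, while 13 moved from below 0 to above it and 6 the other way.

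Genes around the pathway were read from 6 lists, and their values are given as deposited, without removal of the GC and length trend. Of 30 NRF2 targets, 29 could be tested, and 28 rose and 0 fell after tBHP in PBS cells, with a median log2 change of 1.03 (24.2% of all genes tested rose and 26.9% fell). GPX2, at 0 to 2.13 normalized counts, was not tested, and GCLC, the catalytic subunit of the enzyme that starts glutathione synthesis, was at 0.17 (adjusted p = 0.14). AKR1B10 (3.54) and AKR1C1 (3.39), both aldo-keto reductases, rose most, and reads of the close paralogs of AKR1C1 may be split between them. With cNSF-HA 28 of the 29 rose, GCLC among them (0.26, adjusted p = 0.028), and with fNSF-HA all 29 did. The medians were 1.05 and 1.07, where 24% and 19.2% of all genes rose. Beside these, the median over all genes tested was 0.00 in PBS cells and -0.03 in fNSF-HA cells.

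Of 16 genes for other parts of the ligases and for NRF2 turnover, 4 rose and 2 fell in PBS cells, a share of rising genes close to the 24.2% of all genes tested, and a smaller share of falling genes than the 26.9% of all. SYVN1, a ubiquitin ligase of the endoplasmic reticulum that targets NRF2, rose 2.10-fold (log2 change 1.07), and TRIM21, a ligase described to modify p62, rose by 0.90. CAND1, the exchange factor of cullin ligases, fell by 0.85 on the log2 scale, and CUL1, the scaffold of another ligase that receives NRF2, fell by 0.17 (adjusted p = 0.047). CUL1 did not pass with cNSF-HA (-0.16, adjusted p = 0.051) or with fNSF-HA (-0.05, adjusted p = 0.60). With cNSF-HA 5 rose and 4 fell (24% and 26.8% of all genes), and with fNSF-HA 4 rose and 3 fell (19.2% and 22.7% of all).

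Among other genes of the NRF2, BACH and large MAF families, 3 were expressed highly enough to test. NFE2L3, which encodes NRF3, fell by 0.81 on the log2 scale and BACH2 rose by 0.77, while NFE2, MAF and MAFA had at most 6.10 normalized counts. Both genes also passed with cNSF-HA (-0.74 and 1.01) and with fNSF-HA (-0.76 and 0.92). The third, NRL, had 7.24 to 38.1 normalized counts and was at 0.56 in PBS cells (adjusted p = 0.28), passed with cNSF-HA (1.24, adjusted p = 0.020) and was at 0.11 with fNSF-HA (adjusted p = 0.86). These are 1 gene that rose and 1 that fell of 3 in PBS cells, beside 24.2% and 26.9% of all genes. Of 7 genes for the processing of NRF1, VCP, the ATPase that pulls proteins out of the endoplasmic reticulum membrane, rose by 0.46, and NGLY1, which removes N-glycans from NRF1, fell by 0.55. The other 5 did not pass in PBS cells, where 24.2% of all genes rose and 26.9% fell. With cNSF-HA 1 rose and 1 fell as well, and with fNSF-HA 3 rose, VCP, FBXW7 (0.40) and OGT (0.35), and 1 fell (19.2% and 22.7% of all genes).

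The proteasome genes that NRF1 controls rose more often than they fell. Of 31 subunits, 20 rose and 2 fell in PBS cells (median 0.31), 23 rose with cNSF-HA (median 0.46) and 21 with fNSF-HA (median 0.31), and none fell in either. Of all genes tested, 24.2%, 24% and 19.2% rose and 26.9%, 26.8% and 22.7% fell in these 3 comparisons. PSMA6 (1.04) and PSMD3 (0.63) rose most in PBS cells, and PSMA1 (-0.54) and PSMD12 (-0.28) fell. Of 10 autophagy receptors and partners of p62, 9 were tested, and 4 rose and 0 fell in each of the 3 pre-incubations, beside the same shares of all genes. GABARAPL1, which sits in the autophagosome membrane, rose 3.60-fold in PBS cells (log2 change 1.84), and CALCOCO2, a receptor like p62, rose by 0.86.

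**Figure D5:**
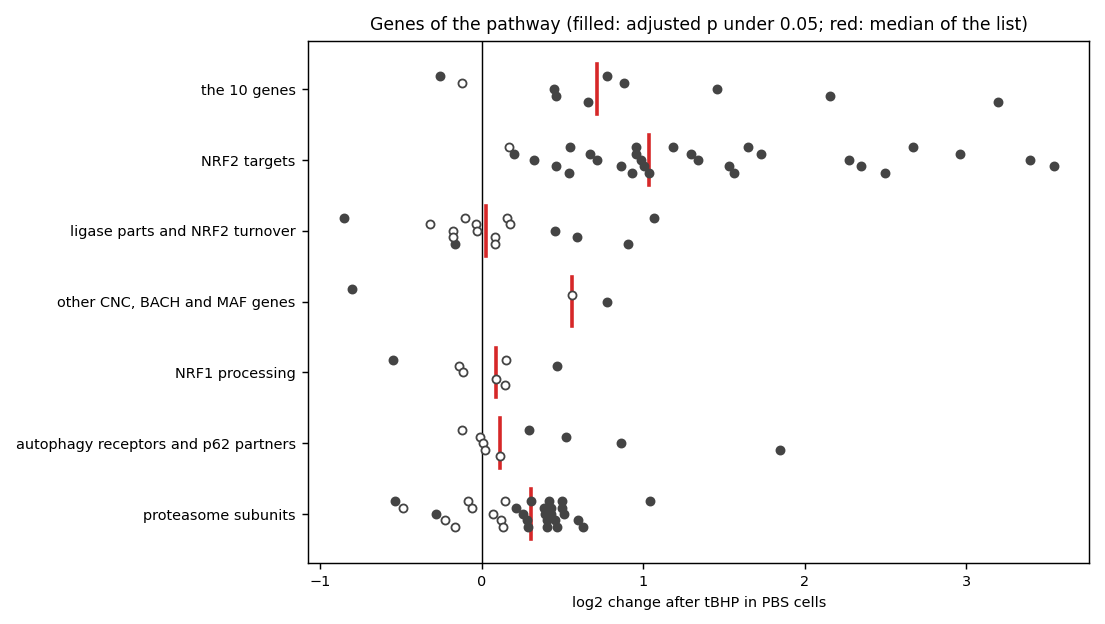
Log2 change after tBHP in PBS cells (x axis) of the 10 genes and of the tested genes of each list, 1 point per gene, filled where the adjusted p was under 0.05, with the median of each list in red. The medians were 0.72 for the 10 genes, 1.03 for NRF2 targets, 0.31 for proteasome subunits and 0.11 for autophagy receptors and p62 partners. They were 0.02 for ligase parts and NRF2 turnover, 0.56 for other CNC, BACH and MAF genes and 0.09 for NRF1 processing. All tested NRF2 targets lie above 0, and each other row has points above and below 0.

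The genes whose log2 values were most like those of NFE2L2 over the 18 libraries were GK (Pearson's r = 0.994), MT-ND2 (0.993) and FAS (0.993). Their transcripts have a GC content of 38.2% to 43.0%, against 45.6% for NFE2L2. Most like OSGIN1 were SLC3A2 (r = 0.999), UNKL (0.998) and STC2 (0.998), which rose by 1.90, 2.02 and 1.34 on the log2 scale in PBS cells. Among the 10 genes, SQSTM1 and OSGIN1 were the pair most alike (r = 0.998), and MAFK and CUL3 moved most oppositely (r = -0.93). All these correlations rest on libraries that share the contrast between unstressed and tBHP cells and, after tBHP, the GC trend.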

How the data were processed

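For each gene of 18 libraries, the deposited signal is a read count divided by a DESeq2 size factor of the library, made by the authors. The submitters' processing notes name Trimmomatic 0.32, STAR 2.5.2b, featureCounts of Subread 1.5.0-p3, DESeq2 and GRCh38.p7. The annotation and the strand setting of the counting are not given in the sources used here, and the library kit (TruSeq RNA V2, single-end reads of 100 nt) does not mark strand. Divided by what 1 read is worth in its library, 100% of values came out whole (within 0.001 of a read), which gave back the reads. The table's 3 other columns hold a p-value, a q-value and a ranking of the authors and were not used. No replicate pair was identical, and the chi-square per degree of freedom between replicates was 1.45 to 2.55 without tBHP and 2.72 to 64.8 after it.

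Log2(value + 1) of the 13686 genes with a mean of at least 10 was tested with limma 3.58.1 in R 4.3.3 (mean-variance trend, 1 coefficient per group over all 18 libraries, two-sided, Benjamini-Hochberg adjustment over all genes tested, threshold 0.05), so fold changes of low genes are understated. "Rose" and "fell" name genes past that threshold. Fold values are ratios of group means. Alternatives were pseudocounts of 0.1 and 5, no filter, a minimum mean of 50, quantile normalization, scaling to a shared median log2 ratio, a replicate block, edgeR 4.0.16 and DESeq2 1.42.0 on recovered reads, only the compared groups, removal of each library's trend with transcript GC and length (spline fits with 5 degrees of freedom on GENCODE release 29 transcripts, which 91.4% of tested genes matched), and each library left out in turn. The fits were tested on simulated data.

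The 10 genes and the 6 lists, written by hand from common knowledge, were chosen with earlier results of these data known. One listed gene is not reported here. All 10 genes are named. In comparisons between pre-incubations, the gene with the smallest p is named, other values being chosen after they were seen. From each list, the 2 genes that rose and the 2 that fell most in PBS cells are named, with NRF2 targets and families that were not tested or did not pass added afterwards, and the 3 genes most correlated with NFE2L2 and with OSGIN1.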

Additional observations from a re-analysis of the deposited data

How the results depend on the processing

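The rise of OSGIN1, SQSTM1, MAFG, MAFF, NFE2L2 and NFE2L1 after tBHP held in all 3 pre-incubations under each of the 29 alternatives, and that of KEAP1 in all but the fit of fNSF-HA cells alone (0.48, adjusted p = 0.074). The number of the 10 genes called was 6 to 10 in all of them (with a library left out, 7 to 9 in PBS, 7 to 10 in cNSF-HA and 7 to 9 in fNSF-HA cells). Counts between pre-incubations departed from 0 in these settings: 1 gene (BACH1) between unstressed cNSF-HA and fNSF-HA cells in the fit of those groups alone, 1 gene (MAFK) between fNSF-HA + tBHP and PBS + tBHP with the GC and length trend removed, and 2 genes between cNSF-HA + tBHP and fNSF-HA + tBHP with DESeq2. With a library left out, the counts in the last 2 comparisons ran from 0 to 6 and from 0 to 8, the highest without fNSF-HA + tBHP replicate 3. All other such counts were 0.

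After tBHP, directions against unstressed cells turned for BACH1, CUL3 and MAFK. With the GC and length trend removed, BACH1 after tBHP was at 0.30, 0.15 and 0.23 in PBS, cNSF-HA and fNSF-HA cells (adjusted p = 0.00039, 0.056 and 0.0042), CUL3 at 0.21, 0.27 and 0.20 (adjusted p = 0.0034, 0.00044 and 0.0063), and CUL3 between unstressed cNSF-HA and fNSF-HA cells at 0.010. MAFK in fNSF-HA cells after tBHP was at 0.03 with quantile normalization, 0.13 with edgeR and 0.067 with DESeq2, and BACH1 at 0.062 with edgeR and 0.0050 with DESeq2. With a library left out, MAFK there ran from -0.27 to 0.29, BACH1 from -0.24 to 0.13 and CUL3 from -0.22 to 0.00017. In comparisons between pre-incubations, where none of the 10 had passed, trend removal turned 7 of the 10 genes between unstressed cNSF-HA and fNSF-HA cells, and 3 and 2 for unstressed cNSF-HA and fNSF-HA against PBS. After tBHP it turned 6 between the HA groups, 6 for fNSF-HA and 2 for cNSF-HA against PBS. Of the differences in response, it turned 5 between the HA groups, 6 for fNSF-HA and 0 for cNSF-HA against PBS. The cause was not tested.

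No source says that replicate numbers mark pairs, and not every pair deviated together: correlations of deviations exceeded 0.1 in 7 of 45 pairs of libraries with the same number (range -0.12 to 0.33). They did so in 4 of 9 pairs between tBHP groups (-0.12 to 0.33) and in 1 of 9 between unstressed and tBHP cells of a pre-incubation (-0.04 to 0.10). In 24 of the 45 pairs the library with the same number correlated best. With a replicate block, CUL3 in cNSF-HA cells was called (-0.23, adjusted p = 0.025), as in 6 other settings, and no other call on the 10 genes changed, while genes called between fNSF-HA + tBHP and PBS + tBHP went from 19 to 61.

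Over all genes, that comparison gave 3 calls with no filter, 30 with a minimum mean of 50, 36 with edgeR, 451 with DESeq2, 65 with the trend removed and 0 in the fit of those groups alone, and 0 to 4024 with a library left out, the highest without fNSF-HA + tBHP replicate 3. Between cNSF-HA + tBHP and fNSF-HA + tBHP, 0 genes became 793 with DESeq2 and 5586 without that library. Between unstressed cNSF-HA and fNSF-HA cells, 0 became 980 in the fit of those groups alone, and the other counts of 0 over all genes became at most 21. The balance of all genes called after tBHP also depended on the tool. With edgeR, 55.7%, 54.8% and 55.9% of them were higher in PBS, cNSF-HA and fNSF-HA cells. In the main fit these shares were 47.4%, 47.3% and 45.9%. What depth limits was not tested.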

Other observations

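Of all genes in the 6 lists, 1 passed a test between pre-incubations after tBHP, in a comparison where 0.139% of all genes tested passed. Differences of the 10 genes in that comparison followed GC content (r = -0.88), and the gene is given as deposited only. ME1, the cytosolic malic enzyme that supplies NADPH, was named after its value was seen, and read 2047, 2065 and 1837 normalized counts in fNSF-HA + tBHP and 1488, 1661 and 1481 in PBS + tBHP (log2 difference 0.36, SE 0.07, adjusted p = 0.043). The groups did not overlap. No gene at all passed that comparison when any 1 of 11 of the 18 libraries was left out, so the call on ME1 was lost there.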
